A study of Mus musculus with 24 samples.

Results

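The genes described here are 10 of the 56205 genes in a count table of whole mouse liver: Yap1, Wwtr1, Tead1, Tead2, Tead3, Tead4, Vgll3, Vgll4, Amotl2 and Ajuba. They were taken by symbol and not by a threshold on their values, but with earlier results of these data known. All 10 passed the filter on low counts. Yap1 encodes YAP and Wwtr1 encodes TAZ, transcriptional coactivators that do not bind DNA themselves. The 4 Tead genes encode the DNA-binding partners through which YAP and TAZ reach their target genes. VGLL3 and VGLL4 bind the TEAD proteins at an overlapping surface, VGLL4 as a competitor of YAP. AMOTL2, a junction protein of the angiomotin family, holds YAP in the cytoplasm, and Ajuba, a LIM domain protein, restrains the LATS kinases. In the Hippo pathway the kinases MST1 and MST2 activate LATS1 and LATS2, which phosphorylate YAP and TAZ and keep them out of the nucleus. In liver the pathway is known for its control of organ size, of the identity of bile duct cells and of the activation of stellate cells, the collagen-producing cells of the sinusoid. Transcript counts report none of these protein states.

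The livers came from C57BL/6J mice of both sexes, with no transgene or deletion in either group. FFD mice had eaten a fat-rich diet (palm oil, with added fructose and cholesterol) for 20 weeks, from young adulthood, and FFD_Ctrl mice the control diet for the same time, with 12 libraries per group. The control diet is called chow in one label, and the liver was sampled whole, so each value mixes hepatocytes with all other cells. The sources give 6 mice per diet and sex but no sex for a library. No label says outright that each library is a separate mouse, so p-values measure the spread between libraries.

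Depth was 14468418 to 22112552 counts per library, so 3 counts equal 0.118 to 0.305 CPM (counts divided by the TMM-adjusted size of the library, the CPM scale of edgeR, used throughout for levels). Libraries fell into 2 sets by Xist, an X-linked noncoding RNA. Replicates 1 to 6 of either diet held at least 1000 Xist counts and replicates 7 to 12 fewer, which leaves 6 libraries per diet in each set. Ddx3y, a Y-linked gene, had 0 counts in every library of the first set and 448 to 1016 in every library of the second. FFD replicate 9 had the highest TMM factor at 1.34 and control replicate 10 the lowest at 0.679. Calls needed edgeR's quasi-likelihood adjusted p to be 0.01 or less, with a log2 fold change beyond 0.5 in either direction. Over the 17913 genes tested, 13.2% were called higher on FFD and 4.99% lower (2372 and 894 genes). With scaling by library totals alone these were 3827 and 226 genes, and the median log2 fold change of all genes moved from -0.03 to 0.26.

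Markers of several liver cell types differed in level between the 2 diets. Summed over 6 hepatocyte markers the level was 38480 to 92160 CPM on FFD and 81380 to 128700 on the control diet, with Alb, Ttr, Apoa1 and Cps1 called lower and Cyp3a11 called higher. Summed over 8 markers of stellate cells and myofibroblasts it was 129 to 374 against 78.8 to 191 CPM, and 4 of the 8 were called higher. The 6 macrophage markers summed to 268 to 688 against 92.8 to 387 CPM, with 5 called higher. For endothelial cells the sums were 148 to 334 against 128 to 279 CPM (1 of 6 called higher), and for T and B cells 3.51 to 9.37 against 1.53 to 10.7 CPM (0 of 6 called). The 7 cholangiocyte markers summed to 19.9 to 208 against 16.6 to 39.2 CPM, and 4 of the 6 tested were called higher. FFD replicate 9 held the value of 208, and without it the highest FFD library was at 64.9. No marker of these lists was at 0 in every library of a diet. In bulk RNA, more or fewer cells of a type cannot be told apart from more or less RNA per cell.

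TEAD proteins bind the core sequence GGAATG, and the promoters of these genes show where that core lies near their own start sites. In the RefSeq promoter windows (build GRCm38.p6, 250 bases before to 50 after each start) 8 of the 10 genes had an entry, all but Tead1 and Tead4. GGAATG or its reverse complement CATTCC, on either strand, was found in a window of 7 of these 8 genes: Yap1, Wwtr1, Tead3, Vgll3, Vgll4, Amotl2 and Ajuba. The window of Tead2 held neither. Of all 32851 windows, 14.7% held the core, and of the 27025 genes with a window 16.6% had it in at least 1. The stretches below are shown because they carry that core, with a pair of known YAP target genes after them for comparison. Each lies upstream of the RefSeq start of its window, on the strand of the gene, and the capitals mark the core. For Vgll3, Vgll4 and Ajuba the bases just after that start were not found in a GENCODE M21 transcript of the gene. Their starts and distances rest on RefSeq alone.

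Yap1, chr9:8004702-8004767, minus strand: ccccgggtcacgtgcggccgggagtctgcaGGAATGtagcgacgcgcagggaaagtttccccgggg
Wwtr1, chr3:57576011-57576076, minus strand: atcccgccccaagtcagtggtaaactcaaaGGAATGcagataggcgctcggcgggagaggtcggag
Tead3, chr17:28350952-28351017, minus strand: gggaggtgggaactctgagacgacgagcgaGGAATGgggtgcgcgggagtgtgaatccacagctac
Vgll3, chr16:65815096-65815161, plus strand: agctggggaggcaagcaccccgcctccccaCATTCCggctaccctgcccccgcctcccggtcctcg
Vgll4, chr6:114969250-114969315, minus strand: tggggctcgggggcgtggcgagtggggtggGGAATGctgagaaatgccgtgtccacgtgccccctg
Amotl2, chr9:102717709-102717774, plus strand: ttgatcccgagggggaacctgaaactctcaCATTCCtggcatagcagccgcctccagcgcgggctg
Ajuba, chr14:54577812-54577877, minus strand: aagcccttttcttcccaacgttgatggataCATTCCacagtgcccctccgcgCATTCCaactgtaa
Ankrd1, chr19:36120019-36120084, minus strand: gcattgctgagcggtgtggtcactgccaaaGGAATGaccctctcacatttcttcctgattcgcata
Ccn1, chr3:145650053-145650118, minus strand: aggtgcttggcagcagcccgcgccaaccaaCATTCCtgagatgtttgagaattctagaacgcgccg

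The core began 63 bases upstream of the start in Vgll3, 65 in Amotl2, 82 in Vgll4, 141 in Yap1, 182 in Tead3 and 186 in Ajuba. The stretch of Ajuba holds it again at -164 bases. Wwtr1 has 2 windows that share 1 occurrence, at 136 and 170 bases from their starts. The second window of Tead3 holds it at -123, -114 and 2 bases relative to that window's start, and the single window of Ankrd1 at -210 and -123 bases. Genes with the core were found both among those whose transcript was called higher on FFD (Vgll3 and Ajuba) and among those that were not called (Yap1, Wwtr1, Tead3, Vgll4 and Amotl2). A match of 6 letters describes the sequence and not a bound site.

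Of the 10 genes, 4 were called higher on FFD (Tead1, Tead2, Vgll3 and Ajuba) and 0 lower, beside 13.2% and 4.99% of all genes tested. The median log2 fold change of the 10 was 0.56, against -0.03 for all genes, and 6 of the 10 lay above 0. DESeq2 and limma-voom also called 0 of them lower, and at an unadjusted p under 0.05 edgeR counted 6 higher and 3 lower. At an adjusted p of at most 0.05 with no limit on the fold change, 6 were higher (the 4 above, Wwtr1 and Tead4) and 2 lower (Yap1 and Tead3), where 20.7% and 18.9% of all genes passed.

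**Figure D1:**
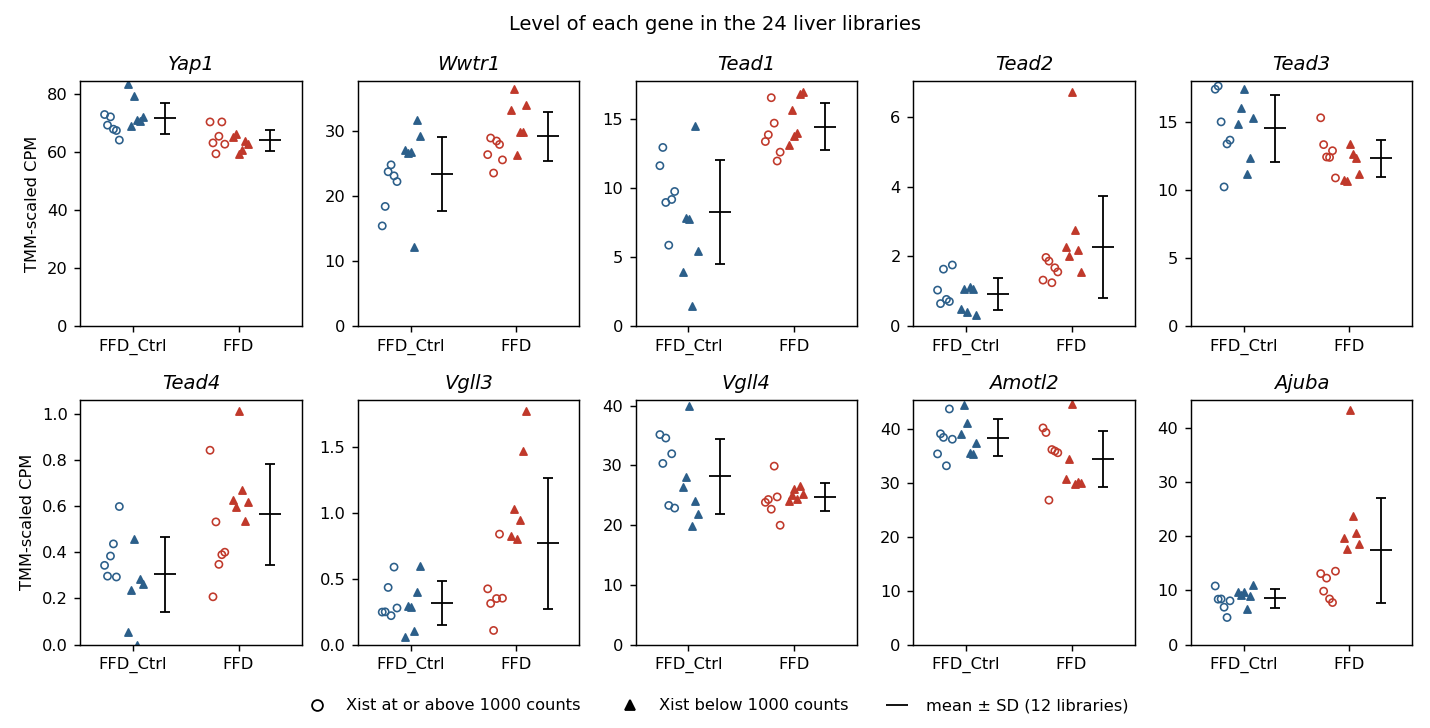
Level of each of the 10 genes (vertical axis, TMM-scaled CPM, starting at 0) in the 12 FFD_Ctrl and 12 FFD libraries. Open circles are libraries with at least 1000 Xist counts, filled triangles those with fewer, and the bar beside each group is the mean ± SD; Ajuba on FFD splits into circles at 7.75 to 13.5 CPM and triangles at 17.7 to 43.3 CPM.

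Yap1 was the most abundant of the 10 per length and differed little between the diets. Its level was lowest at 59.4, median 63.4 and highest at 70.3 CPM on FFD, and lowest at 64.1, median 70.8 and highest at 83.2 CPM on the control diet. All FFD libraries lay below the control median, and 7 of the 12 lay below the lowest control library. The means were 64.1 ± 3.66 CPM on FFD and 71.6 ± 5.21 on the control diet (SD, n = 12 each). The log2 fold change was -0.16 (SE 0.05, edgeR adjusted p = 0.016), which does not meet the call, and with scaling by library totals it was 0.13. In M21, 116 of the exon bases of Yap1 lie opposite exons of Gm20416, and counts of the pair can be told apart only if strand was used in the counting.

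Wwtr1 went the other way, also short of the call. Its level ran from 23.5 through a median of 28.7 to 36.4 CPM on FFD and from 12.1 through 24.2 to 31.7 CPM on the control diet, and 11 of 12 FFD libraries were above the control median. The lowest value belonged to control replicate 10. The means were 29.2 ± 3.77 and 23.4 ± 5.70 CPM (SD, n = 12 each). This gave a log2 fold change of 0.32 (SE 0.12, edgeR adjusted p = 0.0332). With library totals it was 0.60 and met the call (edgeR adjusted p = 0.00104).

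The ratio of the 2 coactivator transcripts needs no scaling between libraries, since both counts come from the same library. For every 100 counts on Yap1, Wwtr1 had 37.5 to 55.2 counts on FFD (median 45.0) and 17.1 to 44.9 on the control diet (median 34.0). The mean log2 ratio was -1.14 ± 0.18 on FFD and -1.66 ± 0.40 on the control diet (SD, n = 12 each), a difference of 0.51 (two-sided permutation test with 100000 resamples, p = 8e-05). Within the libraries with at least 1000 Xist counts the difference was 0.43 and the diets did not overlap (p = 0.00216 by two-sided exact permutation, the lowest value that 6 against 6 can give). Within those with fewer it was 0.59 (p = 0.00433 by two-sided exact permutation). Leaving out each library in turn gave 0.43 to 0.56, the lower end without control replicate 10. The ratio shows that the transcripts changed unequally and does not say which of them moved.

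**Figure D2:**
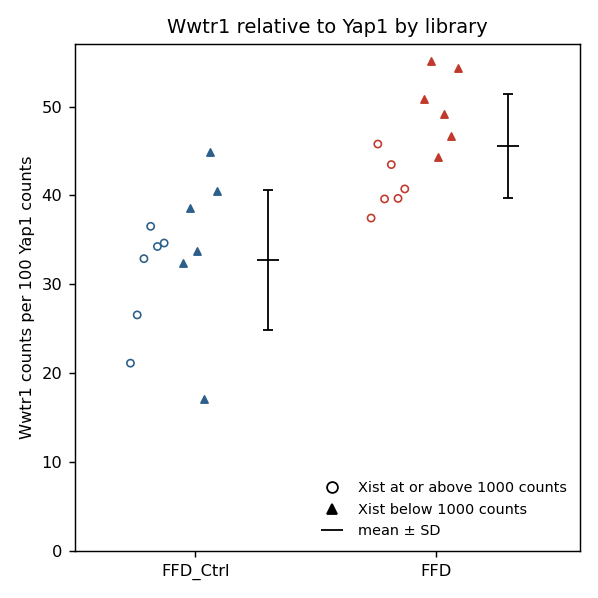
Counts on Wwtr1 per 100 counts on Yap1 (vertical axis, starting at 0) in each library, by diet; open circles are libraries with at least 1000 Xist counts, filled triangles those with fewer, bars the mean ± SD of 12 libraries. FFD libraries run from 37.5 to 55.2 and control libraries from 17.1 to 44.9, and within the circles the diets do not overlap.

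Among the TEAD genes, Tead1 and Tead2 were called higher on FFD, while Tead4 and Tead3 were not called. The mean share of each gene in the family total differed between the diets, which was not tested. Tead1 was at 11.9 to 16.95 CPM on FFD (median 13.9) and at 1.43 to 14.4 CPM on the control diet (median 8.39). Every FFD library was above the control median, and 10 of 12 control libraries were below the lowest FFD library. The spread was mostly within the control diet, where replicate 10 had 14 counts and replicate 11 had 255. The means were 14.4 ± 1.69 and 8.25 ± 3.75 CPM (SD, n = 12 each), and the log2 fold change was 0.80 (SE 0.21, edgeR adjusted p = 0.00344). It was 0.70 without control replicate 10 and kept the call in each of the 24 fits that leave out 1 library.

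Tead2 was rarer. Its level was 1.24 to 6.72 CPM on FFD (median 1.92; 25 to 159 counts) and 0.329 to 1.75 CPM on the control diet (median 0.899; 5 to 38 counts). Again all FFD libraries were above the control median, and 7 were above the highest control library. The value of 6.72 belonged to FFD replicate 9, and the next highest was 2.76 in replicate 10. The means were 2.26 ± 1.47 and 0.917 ± 0.452 CPM (SD, n = 12 each), with a log2 fold change of 1.29 (SE 0.29, edgeR adjusted p = 0.000944). Without FFD replicate 9 it was 1.02 (edgeR adjusted p = 0.00151). That library also had the highest cholangiocyte marker sum, 208 CPM against 19.9 to 64.9 in the other FFD libraries, and the part of these cells in the Tead2 level was not tested. Of the exon bases of Tead2, 13 lie opposite exons of Cd37.

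Tead3, the leading Tead transcript per kilobase of exon, was at 10.6 to 15.3 CPM on FFD (median 12.4) and at 10.2 to 17.6 CPM on the control diet (median 14.9). A single FFD library was above the control median. The log2 fold change was -0.24 (SE 0.09, edgeR adjusted p = 0.0338), short of the call, and 0.05 with scaling by library totals. Tead4 was near the limit of the depth, with 4 to 24 counts on FFD and 0 to 13 on the control diet. Its level was 0.207 to 1.01 CPM (median 0.566) against 0 to 0.600 CPM (median 0.295), and 11 of 12 FFD libraries were above the control median. The log2 fold change of Tead4 was 0.85 (SE 0.31, edgeR adjusted p = 0.0327), again short of the call, and 1.13 with library totals, which met it (edgeR adjusted p = 0.00987).

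Per kilobase of exon the family can be set on 1 scale. Tead3 made up 71.7 ± 8.35% of the summed Tead level in control livers and 52.3 ± 5.21% in FFD livers (SD, n = 12 each). Tead1 was at 19.2 ± 7.15% in control livers and 30.4 ± 4.27% in FFD livers. Tead2 was at 6.43 ± 3.21% against 12.9 ± 5.91%, and Tead4 at 2.72 ± 1.57% against 4.38 ± 1.33%. Tead3 ranked first in every library. The sum itself was 3.05 ± 0.556 CPM per kb on the control diet (2.01 to 3.795) and 3.53 ± 0.431 on FFD (2.98 to 4.69). Whether the sum differed between the diets was not tested. These shares use the exon lengths of M21, which are not known to be those of the transcripts made in liver, and they are given without a test.

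**Figure D3:**
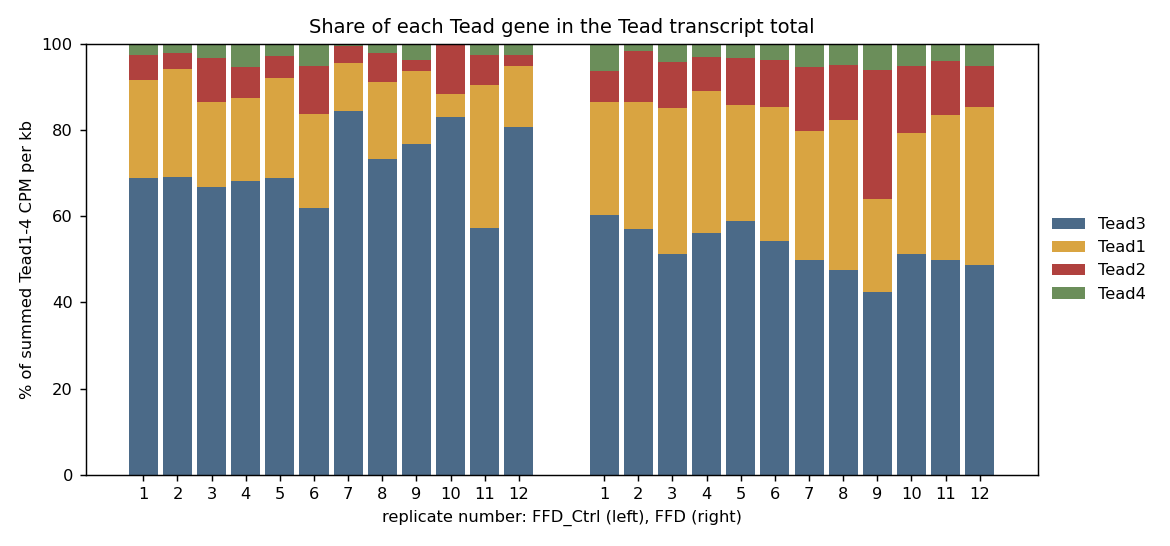
Share of each Tead gene in the summed CPM per kb of Tead1 to Tead4 (vertical axis, percent), 1 bar per library, with the 12 FFD_Ctrl libraries on the left and the 12 FFD libraries on the right, by replicate number. Tead3 holds 57.4 to 84.5% in control libraries and 42.4 to 60.4% in FFD libraries, and FFD replicate 9 has the highest Tead2 share at 29.9%.

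The TEAD-binding cofactors differed in level and in their relation to the diet. Vgll3 was rare, with 2 to 40 counts on FFD and 1 to 10 on the control diet. Its level was 0.107 to 1.77 CPM (median 0.812) against 0.0541 to 0.592 CPM (median 0.282), and 7 FFD libraries were above the highest control library. Vgll3 had a log2 fold change of 1.28 (SE 0.37, edgeR adjusted p = 0.0072). The call held in 11 of the 24 fits that leave out 1 library. Without FFD replicates 7, 8, 10, 11 or 12, or without control replicates 1, 2, 4, 6, 7, 8, 9 or 10, its adjusted p was 0.0103 to 0.0174 at log2 fold changes of 1.12 to 1.29. Vgll4, the YAP competitor, was at 20.0 to 29.9 CPM on FFD (median 24.5) and at 19.9 to 40.0 CPM on the control diet (median 27.2), and 1 FFD library was above the control median. Its log2 fold change was -0.19 (SE 0.10, edgeR adjusted p = 0.122), and 0.09 with scaling by library totals.

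Amotl2 was not called, and Ajuba was called higher with the smallest adjusted p of the 10. Amotl2 was at 26.8 to 44.6 CPM on FFD (median 35.0) and at 33.2 to 44.4 CPM on the control diet (median 38.3), with a log2 fold change of -0.16 (SE 0.07, edgeR adjusted p = 0.1) and of 0.14 with library totals. Its FFD value of 44.6 was that of replicate 9, and 5 FFD libraries were below the lowest control library. Ajuba was at 7.75 to 43.3 CPM on FFD (median 15.6) and at 4.99 to 11.1 CPM on the control diet (median 8.68), and 9 FFD libraries were above the highest control library. The means were 17.4 ± 9.63 and 8.55 ± 1.75 CPM (SD, n = 12 each). The log2 fold change was 1.02 (SE 0.22, edgeR adjusted p = 0.000564), and 0.83 without FFD replicate 9, which held the 43.3 CPM (edgeR adjusted p = 0.000592). In 4 of the 10 genes (Tead2, Tead4, Amotl2 and Ajuba) replicate 9 was the highest FFD library.

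The diet comparison was repeated within each set of libraries, and the difference between the sets was tested. Among those with at least 1000 Xist counts edgeR called 0 of the 10 genes higher and 0 lower, where 2.9% and 0.882% of all genes were called (3 higher and 1 lower of the 10 at an unadjusted p under 0.05). Among those with fewer it called 3 higher (Tead2, Vgll3 and Ajuba), where 14.4% of all genes were called higher. None of the 10 was called lower in that set, where 1431 of all 17913 genes were. In that set every FFD library lay above every control library for Tead2, Tead4, Vgll3 and Ajuba, and below for Yap1, which 12.6% and 9.66% of all genes did in the respective direction. The test of the difference between the sets, an interaction of diet and set, passed at an adjusted p of at most 0.05 for 1 of the 10, Ajuba. That is the share of all genes that passed, 10.2%, so the count says nothing particular about these genes. Wwtr1 had nearly the same log2 fold change in both sets, 0.34 and 0.32.

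In Ajuba the FFD libraries with at least 1000 Xist counts were at 7.75, 8.41, 9.85, 12.3, 13.1 and 13.5 CPM. The control libraries of that set were at 4.99, 6.89, 8.07, 8.37, 8.41 and 10.8 CPM. The FFD libraries with fewer Xist counts were at 17.7, 18.6, 19.7, 20.5, 23.7 and 43.3 CPM, and their controls at 6.62, 8.95, 9.13, 9.61, 9.68 and 11.1 CPM. The control libraries of both sets thus covered much the same range. On FFD the highest value of the first set was 13.5 CPM and the lowest of the second 17.7 CPM. How many of all genes separate the FFD libraries by set in this way was not counted. The log2 fold change was 0.45 (SE 0.18) in the first set and 1.40 (SE 0.21) in the second, and the interaction was -0.93 (SE 0.29, edgeR adjusted p = 0.0388). It passed in 11 of the 24 fits that leave out 1 library. Without FFD replicate 9 it was -0.69 (edgeR adjusted p = 0.0667), and it missed the threshold also without FFD replicates 2, 4, 5 or 10 or control replicates 1, 2, 3, 6, 7, 8, 9 or 10, with adjusted p up to 0.0723.

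Marker sums differed between the same FFD libraries. With at least 1000 Xist counts the stellate and myofibroblast sum was 129 to 243 CPM, the cholangiocyte sum 19.9 to 32.4 CPM and the hepatocyte sum 68730 to 92160 CPM. With fewer, these were 248 to 374, 31.8 to 208 and 38480 to 48780 CPM. Macrophage sums separated the sets among control libraries, at 207 to 387 CPM in the first set and 92.8 to 164 in the second, and overlapped on FFD (377 to 430 and 268 to 688 CPM). Endothelial sums also separated the sets among control libraries, at 219.5 to 278.9 CPM in the first set and 127.8 to 206.2 in the second. On FFD they overlapped, at 221.9 to 333.5 and 148.2 to 263.6 CPM. The part of cell proportions in the Ajuba values was not tested. The interactions of Tead2 (-1.44, edgeR adjusted p = 0.0733), Tead4 (-1.37, 0.148) and Vgll3 (-1.70, 0.0829) were larger in size than that of Ajuba but less precise, and did not pass.

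**Figure D4:**
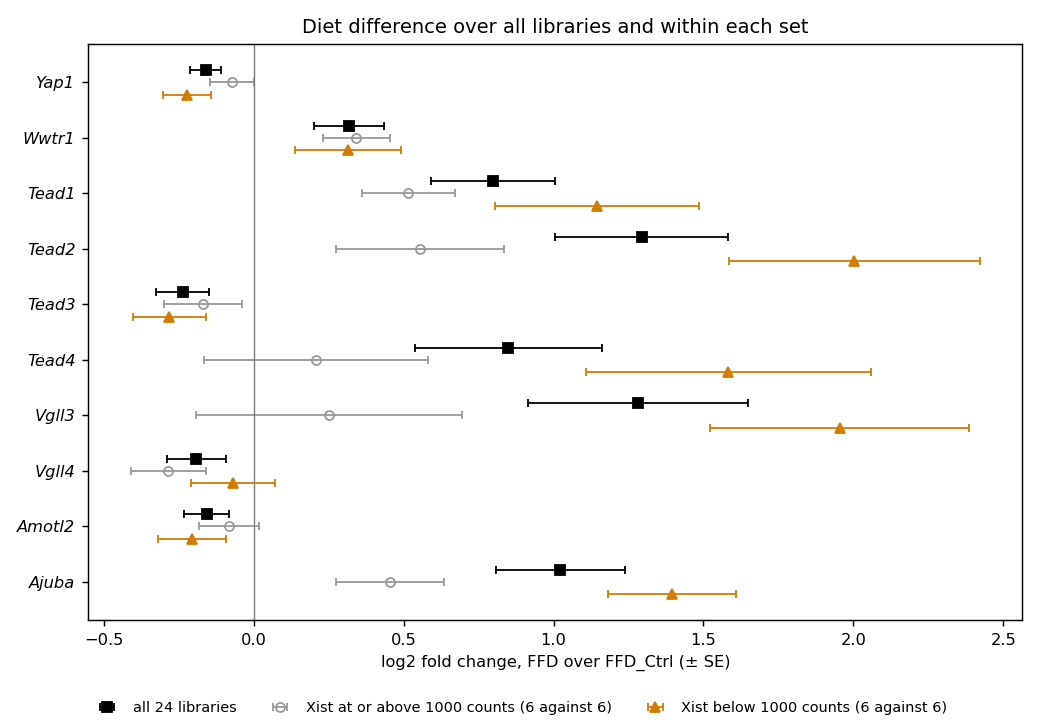
Log2 fold change of FFD over FFD_Ctrl with its SE (horizontal axis) for the 10 genes, over all 24 libraries (squares), within the 12 libraries with at least 1000 Xist counts (open circles) and within the 12 with fewer (triangles). Ajuba stands at 0.45 in the circles and 1.40 in the triangles, while Wwtr1 stands at 0.34 and 0.32.

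The order of the 10 transcripts by length-scaled level was nearly the same in both diets. In control livers it ran from Yap1 at 7.73 ± 0.563 CPM per kb through Amotl2 (6.11 ± 0.541), Vgll4 (5.22 ± 1.16) and Wwtr1 (4.90 ± 1.19) to Ajuba (2.34 ± 0.480) and Tead3 (2.16 ± 0.365). Tead1 (0.608 ± 0.276), Tead2 (0.192 ± 0.0945), Tead4 (0.0846 ± 0.0459) and Vgll3 (0.0438 ± 0.0235) followed (SD, n = 12). Neighbours from Amotl2 to Wwtr1, and Ajuba and Tead3, lay within 1 SD of each other. In FFD livers Wwtr1 (6.10 ± 0.789) stood second after Yap1 (6.92 ± 0.395), and Ajuba (4.76 ± 2.64) stood beside Amotl2 (5.48 ± 0.830) and Vgll4 (4.58 ± 0.435), again within 1 SD.

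The rest of the Hippo pathway was read from a list of 28 genes, of which 26 were tested (Vgll1 and Vgll2 did not pass the filter). It showed 3 genes called higher, 2 called lower and a median log2 fold change of 0.01. The share called higher was 11.5%, near the 13.2% of all genes, and the share called lower 7.69%, beside 4.99%. In the kinase core of 8 genes, Lats1 and Mob1b were called lower and the others (Stk3 and Stk4, which encode MST2 and MST1, Sav1, Lats2, Mob1a and Nf2) were not called. Lats1, 1 of the 2 kinases that phosphorylate YAP and TAZ, was at 13.4 to 22.01 CPM on FFD (median 18.3) and at 18.1 to 30.3 CPM on the control diet (median 25.2). Its log2 fold change of -0.50 (SE 0.08, edgeR adjusted p = 5.63e-05) sat at the fold limit. It was past that limit in 11 of the 24 fits that leave out 1 library, and the values over these fits were -0.54 to -0.46, all with an adjusted p of at most 0.000163. The 13 fits under the limit were those without FFD replicates 2, 7, 8, 9, 10, 11 or 12 and those without control replicates 1, 2, 3, 5, 9 or 11.

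Mob1b, an activating partner of the LATS kinases, was at 21.9 to 30.5 CPM on FFD (median 25.5) and at 28.4 to 50.6 CPM on the control diet (median 37.7). Its log2 fold change was -0.61 (SE 0.08, edgeR adjusted p = 3.5e-06). With library totals Lats1 was at -0.22 and Mob1b at -0.31, and neither met the call. The 3 genes called higher are not of the kinase core. Map4k4, a kinase that can act beside MST1 and MST2 on the LATS kinases, was at 10.3 to 37.8 CPM on FFD and 4.49 to 13.9 CPM on the control diet (log2 fold change 1.10, SE 0.19, edgeR adjusted p = 5.73e-05). Wtip, a LIM domain protein of the Ajuba family, was at 2.84 to 7.95 against 1.53 to 3.22 CPM (1.09, SE 0.18, edgeR adjusted p = 3.49e-05). Frmd6, which encodes the FERM protein Willin, was at 6.29 to 14.8 against 2.44 to 8.33 CPM (0.76, SE 0.16, edgeR adjusted p = 0.000493). Limd1, the remaining LIM protein of the list, had a log2 fold change of -0.10 (edgeR adjusted p = 0.204).

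The list of 21 genes widely used as YAP and TAZ targets leaves out Amotl2, a target that is 1 of the 10 genes. As given above, Amotl2 was not called (log2 fold change -0.16, edgeR adjusted p = 0.1). Of the 21 genes, 20 were tested (Foxf2 did not pass the filter). On FFD 9 were called higher, 45% beside 13.2% of all genes, and 0 were called lower by edgeR, DESeq2 or limma-voom (1 at an unadjusted p under 0.05 in edgeR). DESeq2 called 10 higher and limma-voom 5, without Ankrd1 (adjusted p = 0.0324), Tgfb2 (0.0118), Fjx1 (0.0125) and Arhgef17 (0.017). Their median log2 fold change was 0.71, and 16 of the 20 were above 0. The called genes were Ankrd1, Tgfb2, Myof, Ccdc80, Fjx1, Axl, Rbms3, Arhgef17 and Gadd45a. In Myof, a membrane repair protein of the ferlin family, every FFD library was above every control library, which held for 1.48% of all genes. Its level was 7.83 to 30.4 CPM on FFD (median 13.3) and 1.22 to 7.14 CPM on the control diet (median 3.13), with a log2 fold change of 2.12 (SE 0.25, edgeR adjusted p = 1.12e-06). Axl, a receptor tyrosine kinase, was at 57.8 to 132 against 11.9 to 60.8 CPM (1.42, SE 0.19, edgeR adjusted p = 3.4e-06). Ccdc80, a secreted matrix protein, was at 20.6 to 89.2 against 5.89 to 24.1 CPM (1.95, SE 0.25, edgeR adjusted p = 2.2e-06).

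Ankrd1 and Tgfb2 rested in size on few libraries. Ankrd1, an ankyrin repeat protein used as a readout of YAP, was at 0.107 to 18.3 CPM on FFD (median 0.735) and at 0 to 0.680 CPM on the control diet (median 0.235). Its log2 fold change was 3.09 (SE 0.69, edgeR adjusted p = 0.000955) and 1.91 without FFD replicate 9, which held the 18.3 CPM (edgeR adjusted p = 0.00318). Tgfb2, a TGF-beta ligand, was at 0.373 to 12.4 against 0.118 to 0.769 CPM (log2 fold change 2.49, SE 0.54, edgeR adjusted p = 0.000798), and without that library the change was 1.72 (edgeR adjusted p = 0.00183). Replicate 9 was the highest FFD library in 10 of the 20 target genes, and it was also the library with the highest cholangiocyte marker sum, whose part in these values was not tested.

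The remaining called targets were at lower folds or less stable. Fjx1 (log2 fold change 1.86, edgeR adjusted p = 0.00398) missed the call without FFD replicate 9 (1.38, edgeR adjusted p = 0.0134). Arhgef17 (0.82, edgeR adjusted p = 0.0074) kept it in 15 of the 24 fits that leave out 1 library; it missed the call without FFD replicates 9, 10 or 12 or control replicates 2, 4, 6, 7, 9 or 12, with 0.59 and an adjusted p of 0.0154 at the farthest. Rbms3 (0.86, edgeR adjusted p = 0.00071) and Gadd45a (0.65, edgeR adjusted p = 0.00169) kept it in all 24. Ccn1 and Ccn2, the matricellular proteins once named Cyr61 and Ctgf and the best-known targets, were not called by edgeR over all libraries. Ccn1 was at 4.32 to 26.7 CPM on FFD (median 10.7) and 3.93 to 13.95 CPM on the control diet (median 5.91), with a log2 fold change of 0.71 (SE 0.24, edgeR adjusted p = 0.0188). Ccn2 was at 5.96 to 31.1 against 4.11 to 20.2 CPM, with medians of 16.03 and 8.55 CPM (0.70, SE 0.28, edgeR adjusted p = 0.0503). Ccn1 lay close to the limit: DESeq2 called it higher (adjusted p = 0.00988), as did edgeR with library totals (1.07, adjusted p = 0.00148) and 2 of the 24 fits that leave out 1 library, among them that without control replicate 10 (0.84, adjusted p = 0.00435). Ccn2 was called within the libraries with fewer than 1000 Xist counts (1.36, edgeR adjusted p = 0.00644) and was at -0.02 in the others. Many of these genes are also transcribed by stellate cells and macrophages, whose marker sums were higher on FFD as given above, and that part was not tested.

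**Figure D5:**
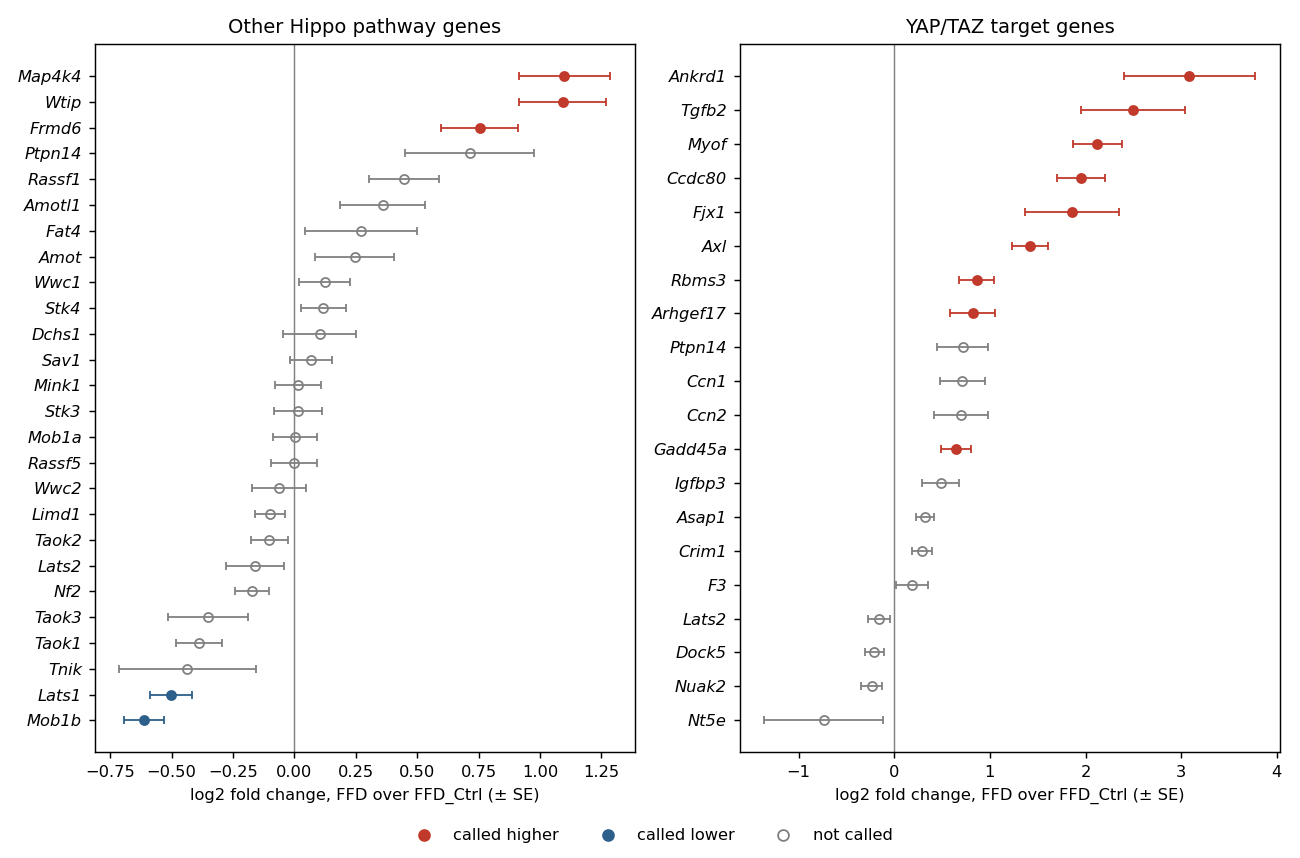
Log2 fold change of FFD over FFD_Ctrl with its SE (horizontal axes, with different ranges) for the 26 other Hippo pathway genes tested (left) and the 20 YAP/TAZ target genes tested (right), each sorted by value. Filled red points were called higher, filled blue points lower and open grey points were not called; on the right, all 9 filled points lie above 0.

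Among the RefSeq promoter windows the TEAD core was found in 6 of the 14 target genes with a window (Ccn1, Ankrd1, Lats2, Ptpn14, Axl and Crim1) and in 7 of the 23 other Hippo genes with one, beside the 16.6% of all genes. Lats2 and Ptpn14 stand in both lists. Myof, Tgfb2, Rbms3 and Gadd45a, all called higher, have windows without it. Ankrd1 and Axl, also called higher, have it, Axl 233 bases upstream of its RefSeq start. The bases just after that start of Axl were not found in a GENCODE M21 transcript of the gene.

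The genes most like the 4 called members were sought over the 24 libraries, after the mean of each diet and set had been subtracted from log2(CPM + 1), among 13916 genes. For Tead1 they were Pyroxd2, Myo1c and Trak2 (Pearson r of 0.88, 0.87 and 0.87). Ajuba had Prpf40b, Chd4 and Agrn (0.86, 0.82 and 0.80), and Tead2 had Ptpn13, Mxra7 and Nptxr (0.82, 0.80 and 0.79). Vgll3 had Cyp2a4, Brip1os and Zfp1 at 0.66, 0.64 and 0.63. Without FFD replicate 9 the first-ranked values became 0.90 for Tead1, 0.79 for Ajuba, 0.68 for Tead2 and 0.66 for Vgll3. All libraries share the scaling and the cell mixture, and the values are a description.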

How the data were processed

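The values are raw read counts as the authors deposited them, for 56205 Ensembl IDs and 24 poly(A) libraries of whole liver (Trizol RNA). Their processing notes name bcl2fastq, STAR 2.7.3a and mm10. The counting program, its use of strand and its annotation are not given in the sources used here. Symbols and exon lengths came from GENCODE M21, which lacks 4460 of the IDs (0.0723% of counts). Groups came from the labels. No pair of libraries of a diet agreed within sampling noise.

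The quasi-likelihood test of edgeR 4.0.16 (R 4.3.3) was run on TMM-scaled libraries with diet as the only term. Genes needed 1 count or more in 12 or more libraries, and p-values were adjusted by Benjamini-Hochberg over all genes tested. Each SE was derived from the F statistic (size of the log2 fold change over the root of F). The test was also run on simulated counts. These held no outlying library and, for the diet effect, no difference between the library sets, so those features were not checked. The Wwtr1 to Yap1 ratio used counts + 0.5 and permutation tests. Intervals and floors cover counting error only. Replicate numbers were not treated as pairs.

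The 10 genes, the lists and the alternatives (DESeq2 1.42.0, limma-voom from limma 3.58.1, other scalings, filters and thresholds, a replicate block, the library sets, and libraries left out) were chosen with earlier results of these data known. Leaving out FFD replicate 9 with control replicate 10, and leaving out libraries in the interaction, were added after seeing the values. The text names all 10 genes, every called gene of the lists and others by counts; uncalled genes given with values were chosen after their values were seen. Promoter windows came from RefSeq (GRCm38.p6).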

Additional observations from a re-analysis of the deposited data

Results flagged for a closer look

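In 1 of the 10 genes, 1 of the 26 other Hippo genes and 7 of the 20 target genes the diet difference itself differed between the 2 sets of libraries, tested as an interaction of diet and set in edgeR with adjustment over all genes. Of all 17913 genes 10.2% passed the same test. The value is the log2 fold change in libraries with at least 1000 Xist counts minus that in libraries with fewer. It was -0.93 for Ajuba (adjusted p = 0.0388), the only one of the 10 genes described. Among the other Hippo genes it was -1.28 for Map4k4 (adjusted p = 0.00339). Among the target genes it was -3.78 for Ankrd1, -3.28 for Tgfb2, -1.45 for Myof, -1.36 for Ccdc80, -1.30 for Arhgef17, -1.29 for Nt5e and -1.23 for Axl, with adjusted p from 0.00398 to 0.0386. All 9 were negative, so the difference was smaller in the libraries with at least 1000 Xist counts, except in Nt5e, where its sign changed. Nt5e had a log2 fold change of -0.84 in those libraries and 0.47 in the others.

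Leaving out 1 library at a time, Map4k4, Ankrd1, Axl, Ccdc80 and Tgfb2 passed in all 24 fits. Myof passed in 23, failing without control replicate 6 (adjusted p = 0.0505). Arhgef17 passed in 20, failing without FFD replicates 5 or 9 or control replicates 3 or 5. Nt5e passed in 12 and Ajuba in 11. Nt5e failed without FFD replicates 2, 5, 7, 10 or 11 or control replicates 3, 4, 5, 6, 7, 8 or 12, with an adjusted p of up to 0.0761. Without FFD replicate 9 the interaction of Ankrd1 was -2.54 and that of Tgfb2 -2.44. The labels do not name the sets, and Xist and Ddx3y counts split the libraries into 6 and 6 in each diet, as many as the mice of each sex. As given in the report, marker sums of hepatocytes and stellate cells did not overlap between the sets on FFD, and those of cholangiocytes overlapped slightly. On the control diet those of macrophages and endothelial cells did not overlap. Hepatocyte sums overlapped there, at 94630 to 128700 CPM with at least 1000 Xist counts and 81380 to 97070 CPM with fewer. In the interaction 4 of the 6 macrophage markers and 3 of the 6 T and B cell markers passed. So did 1 each of the cholangiocyte, endothelial and hepatocyte markers, and 0 of the 8 stellate and myofibroblast markers. Axl also differed between the sets of control libraries (log2 difference 0.86, edgeR adjusted p = 0.00291), and Nt5e differed more (3.98, edgeR adjusted p = 4.51e-10). The part of these cell types and set differences was not tested.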

How the results depend on the processing

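Tead1, Tead2 and Ajuba kept their direction under all alternatives run, and their call under all but these: Tead2 could not be fitted with at least 10 counts in every library, Tead1 (0.52), Tead2 (0.55) and Ajuba (0.45) were not called within the libraries with at least 1000 Xist counts, and Tead1 (1.15, adjusted p = 0.016) was not called within those with fewer. Vgll3 lost its call in limma-voom (adjusted p = 0.0274), without a filter (0.0103), with the library set as a covariate (0.0123), without control replicates 6 and 11 (0.0128), without FFD replicate 9 and control replicate 10 (0.0143), within the libraries with at least 1000 Xist counts (0.763) and with the replicate block (0.0241). Scaling by library totals turned Yap1 to 0.13, Tead3 to 0.045, Vgll4 to 0.092 and Amotl2 to 0.14, all uncalled; the median of all genes moved up with it.

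Counts of calls moved as follows. Of the 10 genes, 2 (Tead1 and Ajuba) were called higher with at least 10 counts in every library. Tead2, Tead4 and Vgll3 did not pass that filter, and of all genes 1230 of 11322 were called higher with it. Within the libraries with at least 1000 Xist counts 0 of the 10 were called higher, and 2 were lower at an adjusted p of 0.05. Of the Hippo genes, 5 were higher and 0 lower with library totals, 5 higher and 4 lower at an adjusted p of 0.05, and 0 either way in the libraries with at least 1000 Xist counts. A single Hippo gene, Mob1b, was lower with DESeq2, with DESeq2's size factors, with each of the other 3 filters, and without FFD replicate 9 and control replicate 10; leaving out 1 library gave 1 to 2. Of the target genes, 5 were higher in limma-voom, 14 with library totals, 14 at an adjusted p of 0.05, and 3 higher and 1 lower (Nt5e, where 0.882% of all genes were lower) in the libraries with at least 1000 Xist counts. The interaction passed in 3 of the 10 genes with library totals (Tead2, Vgll3 and Ajuba), in 0 at an adjusted p of 0.01 (4 at an unadjusted p under 0.05), in 0 without FFD replicate 9 and control replicate 10, and in 0 to 3 leaving out 1 library. These causes were not tested.

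With the replicate number as a block, 3 of the 10 genes were called higher (not Vgll3), 6 target genes were higher (not Ankrd1, Tgfb2 or Arhgef17), and the Wwtr1 to Yap1 difference stayed 0.51 (exact permutation test of the pairs, p = 0.000488). Correlations of same-numbered libraries were -0.09 for number 9 and 0.16 to 0.54 for the others, and 6 of the 24 libraries correlated best with their own number. Only the diet mean had been subtracted, and same-numbered libraries always fall in the same Xist set. These correlations therefore cannot separate a shared number from a shared set. Levels of Vgll3 and Tead4 rest on at most 40 counts per library, so depth limits what they can show.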
